A study of Saccharomyces cerevisiae with 32 samples.

Results

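The heat responses of TAF1 and TBP were compared over the intergenic regions of Saccharomyces cerevisiae, using 8 of the 32 arrays in the series. On 4 arrays, chromatin immunoprecipitated from an HA-TAF1 strain after heat shock was hybridised against the same strain's mock-treated chromatin, and 4 arrays did the same for HA-TBP. The members were chosen by these labels, and the quantity compared at each region was the heat over mock effect of TAF1 minus that of TBP. Of 7047 regions, 6392 had at least 3 values in each of the 7 ChIP groups and were tested, and 6265 had a value on all 8 arrays.

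Cultures of both tagged strains were grown in YPD at 25 °C. Heat-shocked cultures were brought to 37 °C for 15 min by adding heated medium, and mock cultures received medium at 25 °C for the same time. All cells were then fixed in 1% formaldehyde for 2 h while they returned to 25 °C, so recovery and fixation overlapped. For the tagged strains, the labels name the HA-tagged protein and no other genotype. The 20 other ChIP arrays cover HA-Spt3, HA-Mot1, HA-Bdf1, untagged cells labelled Null and input DNA, with 4 arrays each. RNA of the Null strain, BY4741, was measured on 4 further arrays. Of these, 2 compared heat shock with mock treatment, in opposite channel order, and 2 compared mock with mock. Nothing in the labels says that the arrays of a factor came from separate cultures. Every p-value therefore measures a spread between arrays, which may be technical. In bulk chromatin, binding in fewer cells and weaker binding in each cell cannot be told apart.

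TBP, the TATA-binding protein, marks the promoters of all 3 nuclear RNA polymerases. TAF1 is the scaffold subunit of TFIID, the complex that brings TBP to most promoters of RNA polymerase II. SAGA, of which Spt3 is a subunit, is a second route by which TBP reaches promoters, above all at stress-responsive genes with a TATA box. Mot1, an ATPase, strips TBP off DNA. Bdf1 carries bromodomains, binds acetylated histone H4 and associates with TFIID. Msn2 and Msn4 are the activators of the general stress genes, and Hsf1 is the activator of the chaperone genes.

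Values are log2 ratios of heat over mock, each array centred on its median, so a value of 1 is a doubling relative to the typical region. Array values are given with the fitted effect of the channel order removed. Effects are given ± SE from the limma fit, whose spread was estimated over all 28 ChIP arrays and moderated across regions. The SE is therefore not the spread of a factor's own 4 arrays. The words "rose" and "fell" refer to an adjusted p under 0.05 in limma. The direction is likely rather than stated: it was read as channel 1 over channel 2 because TBP at chaperone promoters then ran with RNA, and the other reading would turn every ChIP sign and every difference below. The 8 arrays held 6769 to 6953 values each. Deposited array medians ranged from 0.17 to 1.52 for TBP and from 0.2 to 1.0 for TAF1, and centring removed these. Arrays A and C of both factors had heat in channel 1, and arrays B and D had it in channel 2.

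Where either factor was called, the heat effects of TBP and TAF1 nearly always had the same sign, and most regions were called for neither. TBP rose at 534 of the 6392 regions (8.35%) and fell at 256 (4.01%). TAF1 rose at 782 (12.2%) and fell at 554 (8.67%). Both rose at 397 regions (6.21%), with a median effect of 0.458 for TBP and 0.508 for TAF1, and both fell at 2.58% of regions, with medians of -0.445 and -0.466. Of the 1563 regions called for either factor, 1492 (95.5%) had effects of one sign, against 76.3% of all regions, and 562 (36.0%) were called for both factors in one direction. A single region, upstream of YNL134C, was called in opposite directions. Across the 6392 regions the effects had a Pearson r of 0.621 and a Spearman rho of 0.663. This is a description over regions that share arrays, channel order and a fitted channel effect. Without TBP array A, B or D the 790 TBP calls became 408, 426 and 447, and without TAF1 array A or B the 1336 TAF1 calls became 625 and 814.

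**Figure D1:**
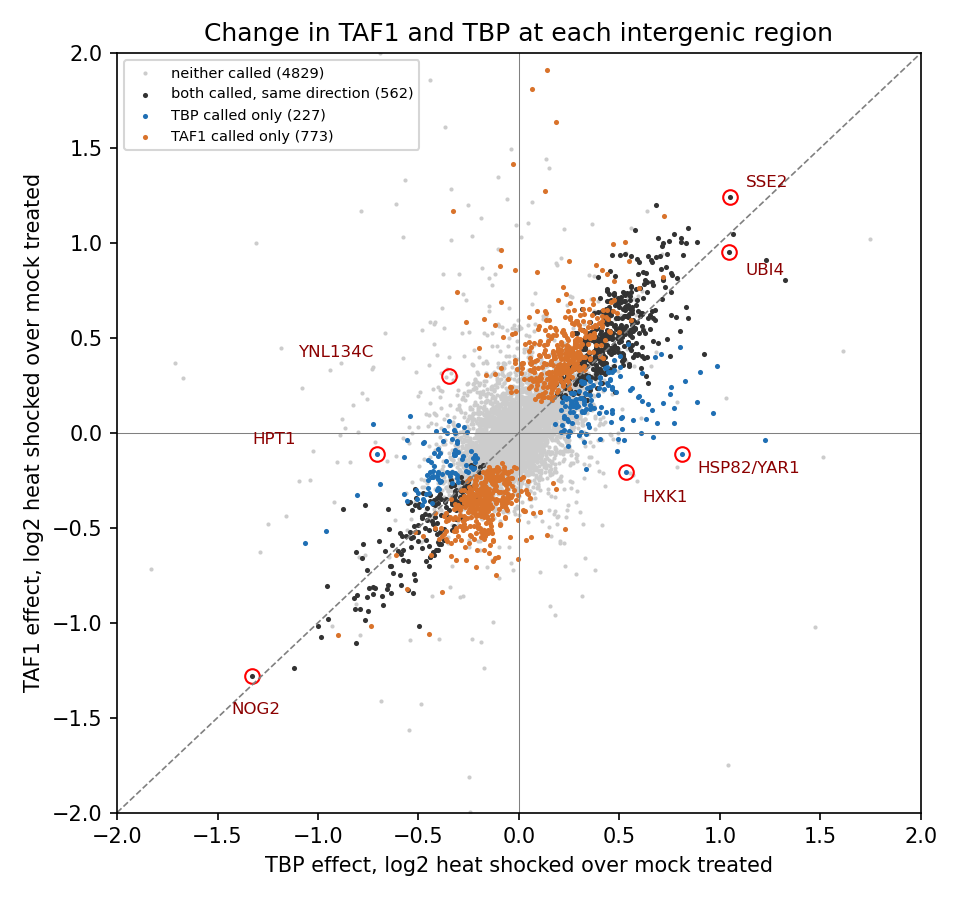
Heat over mock effect (log2) of TAF1 on the vertical axis against that of TBP on the horizontal axis, 1 point per region, coloured by the calls made for each factor; 9 regions lie outside the plotted range. The points run along the diagonal, and the HXK1 region stands below it at a TBP effect of 0.54 and a TAF1 effect of -0.2.

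The arrays of the different factors were about as alike as arrays of the same factor. Pairs of TAF1 arrays correlated at 0.22 to 0.45 over regions, with a median of 0.34 over 6 pairs. Pairs of TBP arrays correlated at 0.24 to 0.68, with a median of 0.38 over 6 pairs. The 16 pairs of a TAF1 and a TBP array correlated at 0.16 to 0.55, with a median of 0.34. These correlations also rest on regions shared between all arrays and carry no test.

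UBI4, the polyubiquitin gene, and SSE2, a nucleotide exchange factor of Hsp70, were among the promoters where both factors rose most. At UBI4 the TBP arrays A to D read 1.49, 1.3, 0.29 and 1.11, and the TAF1 arrays read 1.35, 1.13, 0.61 and 0.73. Array C was the lowest for both factors and the groups overlapped, with effects of 1.05 ± 0.15 for TBP and 0.95 ± 0.15 for TAF1. At SSE2 the TBP arrays read 1.21, 1.27, 0.75 and 0.98, and the TAF1 arrays read 1.71, 1.7, 0.91 and 0.65. The TAF1 values lay on both sides of the TBP values. The other regions with the largest rises of both were those of FMP45, an eisosome-associated membrane protein, ARA1, an arabinose dehydrogenase, ROY1, and the gap between YKL091C and CUE2, with TBP effects of 0.83 to 1.06 and TAF1 effects of 1.0 to 1.08. At FMP45, TAF1 array A read 2.26 and the other 3 TAF1 arrays 0.45 to 0.92.

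Of the 6 regions where both factors fell most, 5 hold promoters of genes of ribosome assembly or RNA modification. At NOG2, a GTPase of 60S subunit assembly, the TBP arrays read -1.6, -1.51, -1.26 and -0.94, and the TAF1 arrays read -1.21, -2.24, -0.88 and -0.8. All 8 values were below 0 and the groups overlapped, with effects of -1.33 ± 0.21 for TBP and -1.28 ± 0.21 for TAF1. The region between NSA2 and LCP5, which encode a 60S assembly factor and a U3 snoRNP protein, gave -1.12 for TBP and -1.24 for TAF1. The region between GCD10 and NOP2, which encode a tRNA methyltransferase subunit and an rRNA methyltransferase, gave -0.99 and -1.07. DBP3, an RNA helicase of 60S assembly, gave -0.82 and -0.87, and MAK16, a 60S assembly factor, gave -0.95 and -0.98. The sixth, the promoter region of RFU1, a regulator of ubiquitin recycling, has BUD20 on its other side and gave -1.0 and -1.02.

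The difference between the factors passed the test at 1 of 6392 regions (0.0156%). At an unadjusted p under 0.05 there were 304 regions (4.76%), no more than the 5% which that threshold gives where nothing differs, with TAF1 lower at 2.41% of all regions and higher at 2.35%. Sets of regions built on this threshold below are therefore descriptions. All 4 TAF1 values lay below all 4 TBP values at 2.35% of the 6265 regions with 8 values, and above them at 1.71%. The median SE of a difference was 0.17 and the median 95% interval reached 0.35 to either side. At 5749 regions (89.9%) the whole interval lay between -1 and 1, so a difference above 1 log2 unit fell outside the interval at these regions, while smaller ones could not be resolved at many.

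By this count TAF1 and TBP were among the most alike pairs of factors. The same model called 31 regions (0.485%) for TBP minus Mot1, 86 (1.35%) for TBP minus Spt3, 89 (1.39%) for TBP minus Bdf1, 259 (4.05%) for TAF1 minus Spt3 and 433 (6.77%) for TAF1 minus Mot1. TAF1 minus Bdf1 had 0 calls (0.0%) in limma, with 7.54% of regions at an unadjusted p under 0.05, against 4.76% for TAF1 minus TBP. Among pairs without TAF1 or TBP the calls were 14 (0.219%) for Spt3 minus Mot1, 452 (7.07%) for Spt3 minus Bdf1 and 632 (9.89%) for Mot1 minus Bdf1. TAF1 minus TBP had the lowest share of the 10 pairs at an unadjusted p under 0.05. The pairs share arrays, their median SEs ran from 0.171 to 0.177, and the counts of calls were not tested against each other.

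**Figure D2:**
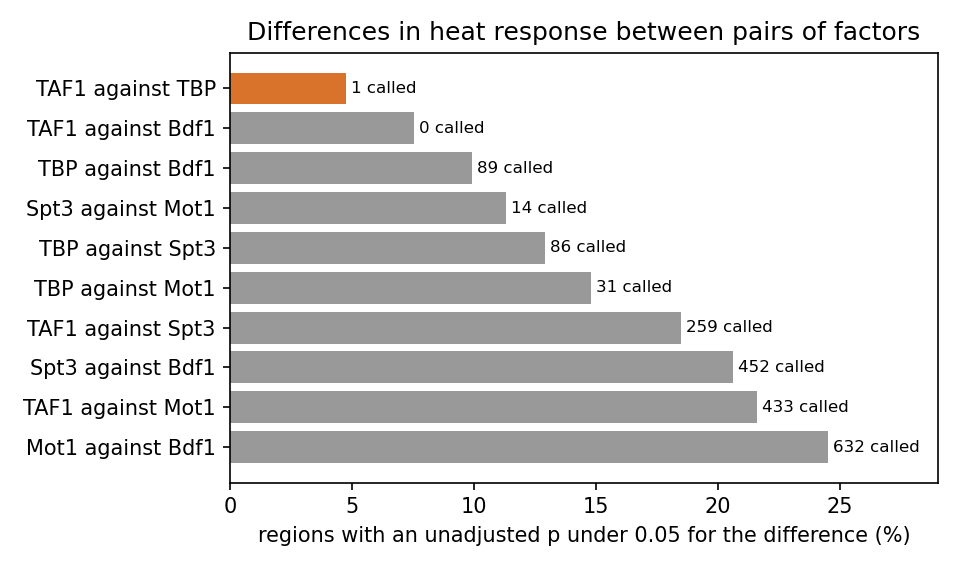
Percent of the 6392 regions at which the heat effects of a pair of factors differed at an unadjusted p under 0.05, 1 row per pair. The number of regions called at an adjusted p under 0.05 is printed beside each bar. TAF1 minus TBP had 4.76% at the unadjusted threshold, the lowest of the 10 pairs, and 1 region called.

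The single called region lies upstream of HXK1, which encodes hexokinase 1, an enzyme of sugar phosphorylation whose gene is repressed by glucose. It is the second of 3 regions listed for that gene. The TBP arrays A to D read 0.56, 0.72, 0.47 and 0.39, and the TAF1 arrays read -0.1, -0.29, -0.31 and -0.13. All TBP values were above 0, all TAF1 values were below it, and the groups did not overlap. TBP rose by 0.54 ± 0.09 (adjusted p = 0.000366, limma), and the TAF1 effect was -0.2 ± 0.09 (adjusted p = 0.106). The difference was -0.74 ± 0.12, with a 95% interval of -1.0 to -0.48 and an adjusted p of 0.0342 in limma. HXK1 RNA rose by 5.12 log2 units. Bdf1 fell there by 0.52 (adjusted p = 0.000441), and the Mot1 effect was 0.23 (adjusted p = 0.102). In HXK1 region 1 TAF1 fell by 0.214 beside a TBP effect of -0.06, and in HXK1 region 3 the effects were -0.27 for TAF1 and -0.161 for TBP, neither called. The call was kept under 6 of 18 other settings, and over these the difference stayed between -1.07 and -0.64 with adjusted p from 0.00213 to 0.85.

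For TBP above TAF1, 12 regions are described next, chosen after their values were seen as those with the smallest p, all 8 values and a bordering promoter, so their differences are given without support from the choice. Apart from HXK1 none passed the adjusted test, with adjusted p from 0.0534 to 0.256 and differences from -0.92 to -0.48. TBP rose at 9 of the 12, against 8.35% of all regions. TAF1 fell at the other 3, against 8.67% of all regions. All of these 3 border tRNA genes, against 6.98% of all regions. Regions chosen for TAF1 below TBP tend to show one call or the other, so the split is a description.

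The promoters of HSP82, the heat-inducible Hsp90 chaperone, and YAR1, which diverges from it, share a region with the largest difference of these. The TBP arrays read 1.13, 1.07, 0.25 and 0.79, and the TAF1 arrays read 0.08, -0.69, 0.03 and 0.13. TBP was high on 3 arrays and lower on array C, TAF1 was near 0 on 3 arrays and low on array B, and the groups did not overlap. The difference was -0.92 ± 0.17 (adjusted p = 0.0534), and it was -0.72 without TAF1 array B. TBP rose by 0.81 and Mot1 rose by 0.77, while HSP82 RNA rose by 2.13 log2 units and YAR1 RNA fell by 1.26.

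ZWF1, glucose-6-phosphate dehydrogenase of the pentose phosphate pathway, had TBP values of 1.18, 0.86, 0.6 and 0.9 and TAF1 values of -0.16, 0.47, 0.15 and 0.2. The lowest TBP value exceeded the highest TAF1 value, and the difference was -0.72 ± 0.16 (adjusted p = 0.122). Mot1 rose there by 1.39 and Spt3 by 0.99, and Bdf1 fell by 0.58. DIP5, a permease for acidic amino acids, had TBP values of 0.93, 0.66, 0.77 and 0.72 and TAF1 values of 0.25, -0.61, 0.19 and 0.36. TAF1 was low on array B alone, and the groups did not overlap. The difference was -0.72 ± 0.18 (adjusted p = 0.224), and -0.49 without TAF1 array B. The first region of YGP1, a secreted glycoprotein made under nutrient stress, had TBP values of 0.66, 0.67, 0.66 and 0.67 and TAF1 values of 0.51, -0.39, -0.13 and -0.08. The TBP arrays were nearly equal while TAF1 spread over both sides of 0, with a difference of -0.69 ± 0.15 (adjusted p = 0.0918) and a rise of YGP1 RNA by 3.84 log2 units.

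HSP78, the mitochondrial disaggregase, had TBP values of 0.65, 0.94, 0.62 and 0.65 and TAF1 values of 0.12, -0.1, 0.38 and 0.23. The groups did not overlap. The difference was -0.56 ± 0.14 (adjusted p = 0.218), Mot1 rose by 1.36, Bdf1 fell by 0.45, and HSP78 RNA rose by 2.56. In region 2 of those shared by TOS3, a kinase that activates Snf1, and MPT5, a Pumilio-family RNA-binding protein, TBP values were 0.3 to 0.65. TAF1 values there ran from -0.22 to 0.14 (difference -0.49 ± 0.11, adjusted p = 0.0918, limma). RNA of TOS3 changed by 0.05 and that of MPT5 by 0.29. The region between CUE4 and YML100W-A had TBP values of 0.42 to 1.07 and TAF1 values of 0.05 to 0.21 (difference -0.64 ± 0.16, adjusted p = 0.207), and RNA of these genes differed by -0.13 and 0.09. SPO24, named for sporulation, had TBP values of 0.35 to 0.63 and TAF1 values of -0.32 to 0.06. At each of these regions TBP was above TAF1 on every array.

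At the 3 regions beside tRNA genes TAF1 fell and TBP was not called. Between PPT1, a protein phosphatase that acts on Hsp90, and the tRNA gene YNCG0033W, the TBP arrays read 0.15, -0.04, 0.46 and 0.34, and the TAF1 arrays read -0.76, -0.76, -0.18 and -0.33. All TAF1 values were below all TBP values, with TAF1 falling by 0.51 and a difference of -0.73 ± 0.14 (adjusted p = 0.0534). Beside the tRNA gene YNCL0001W, TBP values ran from -0.18 to 0.32 and TAF1 values from -0.92 to -0.54. Between the tRNA gene YNCF0014C and CDC26, a subunit of the anaphase-promoting complex, they ran from -0.07 to 0.46 and from -0.46 to -0.2.

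**Figure D3:**
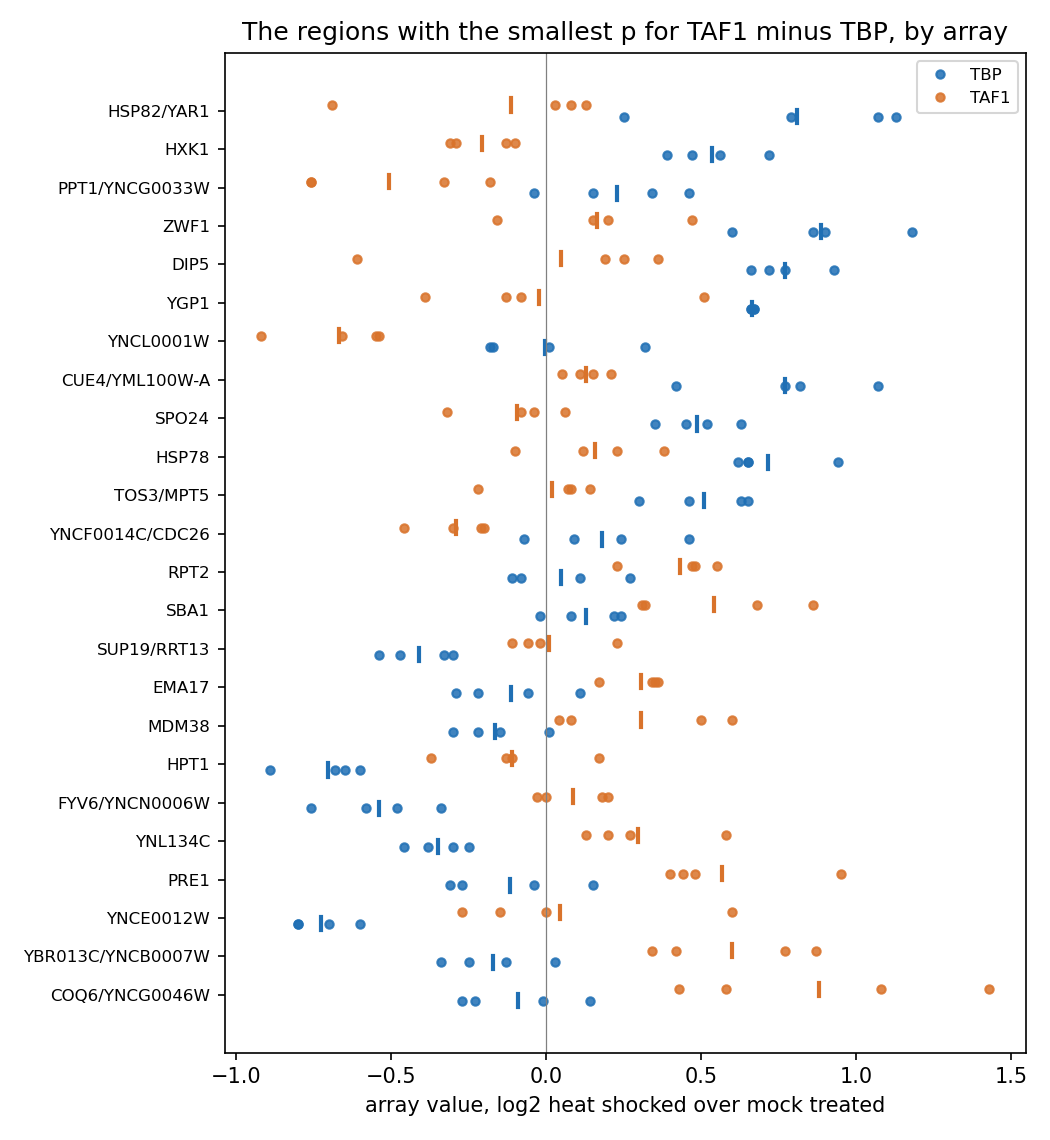
Heat over mock value (log2) on each TBP and TAF1 array at the 12 regions with the smallest p for TAF1 below TBP and the 12 for TAF1 above TBP, 1 point per array. All 4 TAF1 values lie below the TBP values at the first 12, and at 11 of the second 12 they lie above them.

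In the list of general stress genes, the TBP effects had a higher median than the TAF1 effects. The list held 39 tested regions, and TBP rose at 21 of them and fell at 0, with a median of 0.42, against rises at 8.35% of all regions. TAF1 rose at 14 and fell at 1, with a median of 0.1, against rises at 12.2% of all regions. The medians of both factors over all regions were -0.02 and -0.01. Taken region by region the gap was smaller: the list's median difference was -0.11, with 25 regions below 0 and 14 above it. The TBP arrays A to D had list medians of 0.57, 0.44, 0.34 and 0.36, and the TAF1 arrays had 0.14, 0.12, 0.09 and 0.05. Each TBP median lay above each TAF1 median, which held for no other list of the 17. A median difference below 0 was not particular to this list. It was -0.13 at hexose transporter genes, with 19 regions below 0 and 5 above. At ribosome biogenesis genes it was -0.08, with 57 below and 22 above, and the arrays overlapped for both lists. At 9 of 39 regions (23.1%) all 4 TAF1 values lay below the TBP values, against 2.35% of all regions, and at 10 the unadjusted p was under 0.05 with TAF1 lower, against 1 with TAF1 higher. The adjusted test called HXK1 alone. RNA rose for 32 of the 33 genes measured, with a median of 3.19. Without centring of the arrays the list's median difference moved from -0.11 to -0.45, and that of all regions from 0.0 to -0.33.

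These 10 regions were those of HOR7, HXK1 (region 2), YGP1 (region 1), DDR2, ALD4, GSY2, NCE102 (region 2), PNC1, MSC1 and YRO2 (region 2). Other tested regions of the genes with numbered regions did not reach that threshold. HOR7, a small membrane protein of the hyperosmotic response, had TBP values of 1.32, 1.23, 0.23 and 1.07 and TAF1 values of 0.07, -0.06, 0.05 and 0.36. TBP array C fell among the TAF1 values, and the difference was -0.86 ± 0.25 (adjusted p = 0.377). Mot1 rose there by 1.08 and Spt3 by 0.92, and Bdf1 fell by 0.8. DDR2, a small stress-induced protein, had TBP values of 0.81, 0.67, 0.66 and 0.5 and TAF1 values of 0.03, 0.08, 0.24 and 0.14. The groups did not overlap (difference -0.54 ± 0.15, adjusted p = 0.325), and DDR2 RNA rose by 4.70. ALD4, mitochondrial aldehyde dehydrogenase, and GSY2, glycogen synthase, had differences of -0.52 and -0.5, and TBP rose at both. At PNC1, the nicotinamidase, and MSC1, TAF1 rose as well, by 0.26 and 0.22, and TBP by 0.64 and 0.48. The only list member past that threshold in the other direction was the region of SIP18, a desiccation-response protein, shared with PAI3. TAF1 was at 0.88 and TBP at 0.38 there (difference 0.5, adjusted p = 0.862).

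The chaperone list split between both patterns. TBP rose at 13 of 34 regions and fell at 1, with a median of 0.28, and TAF1 rose at 7 and fell at 0, with a median of 0.17. Rises over all regions were 8.35% for TBP and 12.2% for TAF1. All 4 TAF1 values lay below the TBP values at 4 of 32 regions (12.5%, against 2.35% of all), and above them at 2 (6.25%, against 1.71%). The 4 were those of HSP82, HSP104, HSP78 and HSP42 region 2. HSP104, the cytosolic disaggregase, had TBP values of 1.41, 1.04, 0.81 and 0.68 and TAF1 values of 0.66, 0.02, 0.32 and 0.4. The groups only just separated, with TBP rising by 0.98 ± 0.16, a TAF1 effect of 0.35 ± 0.16 and a difference of -0.63 ± 0.23 (adjusted p = 0.782). HSP42, a small heat-shock protein, had TBP values of 0.06 to 0.62 and TAF1 values of -0.28 to -0.09 in region 2. Elsewhere beside HSP42 the difference did not reach an unadjusted p under 0.05 in limma. At SSA4, the heat-inducible Hsp70, both rose, TBP by 0.78 ± 0.16 and TAF1 by 0.61 ± 0.16, and RNA rose by 6.47. At HSP26, another small heat-shock protein, TBP rose by only 0.25 and the TAF1 effect was 0.06, while RNA rose by 6.76.

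At glycolytic and fermentative genes TBP rose at 6 of 22 regions and TAF1 at 2, with medians of 0.14 and 0.02, against rises at 8.35% and 12.2% of all regions. All 4 TAF1 values lay below the TBP values at 4 of 21 regions (19.0%, against 2.35% of all), the HXK1 region among them. TDH3, the main glyceraldehyde-3-phosphate dehydrogenase, had TBP values of 0.65, 0.61, 0.86 and 0.44 and TAF1 values of 0.02, -0.05, 0.21 and 0.42. The lowest TBP value was only just above the highest TAF1 value. TBP rose there by 0.64, Mot1 rose by 1.52, the TAF1 effect was 0.15 (adjusted p = 0.584), and RNA differed by -0.03. At PDC1, pyruvate decarboxylase, neither effect passed the test, at 0.44 for TBP and 0.32 for TAF1.

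In further groups whose RNA rose the medians of both factors were closer than in the general stress list, and equality was not tested. The shares of all regions to set these counts against are 8.35% for rises of TBP, 12.2% for rises of TAF1, and 2.35% and 1.71% for all 4 TAF1 values below and above the TBP values. At proteasome genes TBP rose at 20 of 33 regions and TAF1 at 23, with medians of 0.38 and 0.44, with 0 regions having TAF1 lower at an unadjusted p under 0.05 and 2 having it higher. PRE9, a subunit of the proteasome core, had TBP at 0.59 and TAF1 at 0.84. At genes of respiration and the TCA cycle TBP rose at 17 of 49 regions and TAF1 at 23, with medians of 0.24 and 0.34, and all 4 TAF1 values lay below the TBP values at 2 of 48 (4.17%). At oxidative stress genes TBP rose at 6 of 25 and TAF1 at 8, with medians of 0.13 and 0.26, and 0 had an unadjusted p under 0.05 for the difference, while all 4 TAF1 values lay below the TBP values at 3 of 25 and above them at 0. TRX2, a thioredoxin, had TBP at 0.72 and TAF1 at 1.0, and ALD3, a cytosolic aldehyde dehydrogenase of the stress response, had 0.8 and 1.0 with an RNA rise of 4.14. At trehalose and glycogen genes TBP rose at 6 of 18 regions and TAF1 at 4, with medians of 0.14 and 0.15. All 4 TAF1 values lay below the TBP values at 2 of these (11.1%) and above them at 1 (5.56%), and at an unadjusted p under 0.05 TAF1 was lower at 2 and higher at 0. At cell wall and membrane stress genes each factor rose at 7 of 35, each with a median of 0.11. All 4 TAF1 values lay below the TBP values at 3 of 34 (8.82%) and above them at 0, and at an unadjusted p under 0.05 TAF1 was lower at 3 and higher at 1.

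At ribosome biogenesis genes TBP fell at 42 of 79 regions and TAF1 at 54, with 0 rises of either, against falls at 4.01% and 8.67% of all regions, and the medians were -0.4 and -0.45. RNA fell for 76 of the 78 genes measured. At cytosolic ribosomal protein genes RNA fell for 118 of 121 genes, while TBP fell at 6 of 121 regions and TAF1 at 5, near or under those shares of all regions, and each rose at 3. Their list medians by array were -0.25, -0.37, 0.16 and 0.05 for TBP and -0.06, -0.44, 0.18 and 0.08 for TAF1, so arrays A and B lay below 0 and arrays C and D above it for both factors. Genes of RNA polymerases I and III had TBP falling at 7 of 30 regions and TAF1 at 12. Translation factor genes had TBP falling at 3 of 35 and TAF1 at 6, and at hexose transporter genes TBP fell at 2 of 24 and TAF1 at 7, again to be set against 4.01% and 8.67%. Mitochondrial ribosomal protein genes had TBP rising at 8 of 60 and TAF1 at 14, each with a median of 0.16. Among amino acid biosynthesis genes TBP rose at 7 of 66 and TAF1 at 10, close to the 8.35% and 12.2% of all regions. Among ergosterol genes TBP rose at 3 of 20 and TAF1 at 4, and of 6 histone regions each factor fell at 1, numbers too small to set against those shares. Differences at an unadjusted p under 0.05 in the ribosome biogenesis and both ribosomal protein lists numbered at most 2 in either direction.

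**Figure D4:**
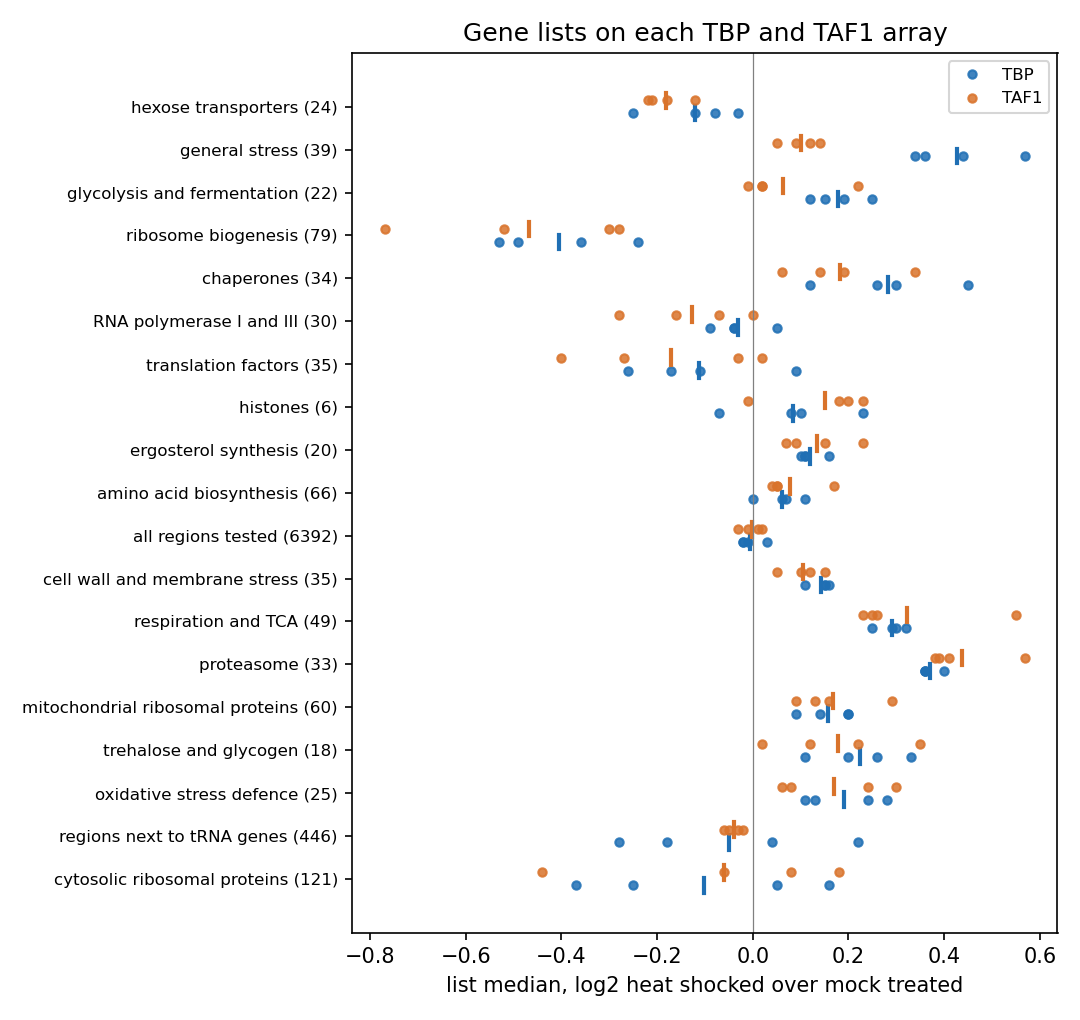
Median heat over mock value (log2) of each gene list on each TBP and TAF1 array, 1 row per list with its number of regions. The TBP and TAF1 arrays separate for the general stress list, at 0.34 to 0.57 against 0.05 to 0.14, and overlap for the others.

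Regions where TBP rose and TAF1 was not called higher numbered 137, with medians of 0.37 for TBP and 0.158 for TAF1. Most of them showed a TAF1 effect too small to call rather than a measured gap, since 43 had a difference with an unadjusted p under 0.05 and 1 had an adjusted one. In these 43 regions, which were defined by these values, the medians were 0.512 and 0.032. The other factors were measured on other arrays, though in one model with a shared channel effect. Mot1 rose at 34 of the 43 (79.1%), against 8.57% of all regions, and Spt3 rose at 19 (44.2%), against 3.88%. Bdf1 fell at 17 (39.5%), against 7.81%, and rose at 2 (4.65%), against 8.42%. RNA rose for 26 of the 49 genes beside them (53.1%), against 19.9% of genes beside tested regions, and fell for 5 (10.2%), against 21.0%. The Null arrays gave 0 calls in these regions, and over all regions 1 higher and 1 lower (0.0156% each). The set held 0.673% of regions. It shrank to 0.438% without TBP array A, and grew to 1.1% in a fit of the 8 arrays alone and to 2.55% with array weights, where Mot1 rose at 47.9%.

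The 397 regions where both rose had another profile of the same factors. Mot1 rose at 119 of them (30.0%) and Spt3 at 64 (16.1%), while Bdf1 rose at 245 (61.7%) and fell at 2. RNA rose for 254 of the 529 genes beside them (48.0%), and it fell for 4.54%. Where both fell, Bdf1 fell at 109 regions (66.1%) and Mot1 at 57 (34.5%), against 4.18% of all regions for Mot1, and RNA fell for 78.9% of the genes beside them. Spt3 fell at 16 of these (9.7%), against 1.77%. These shares were not tested against each other.

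**Figure D5:**
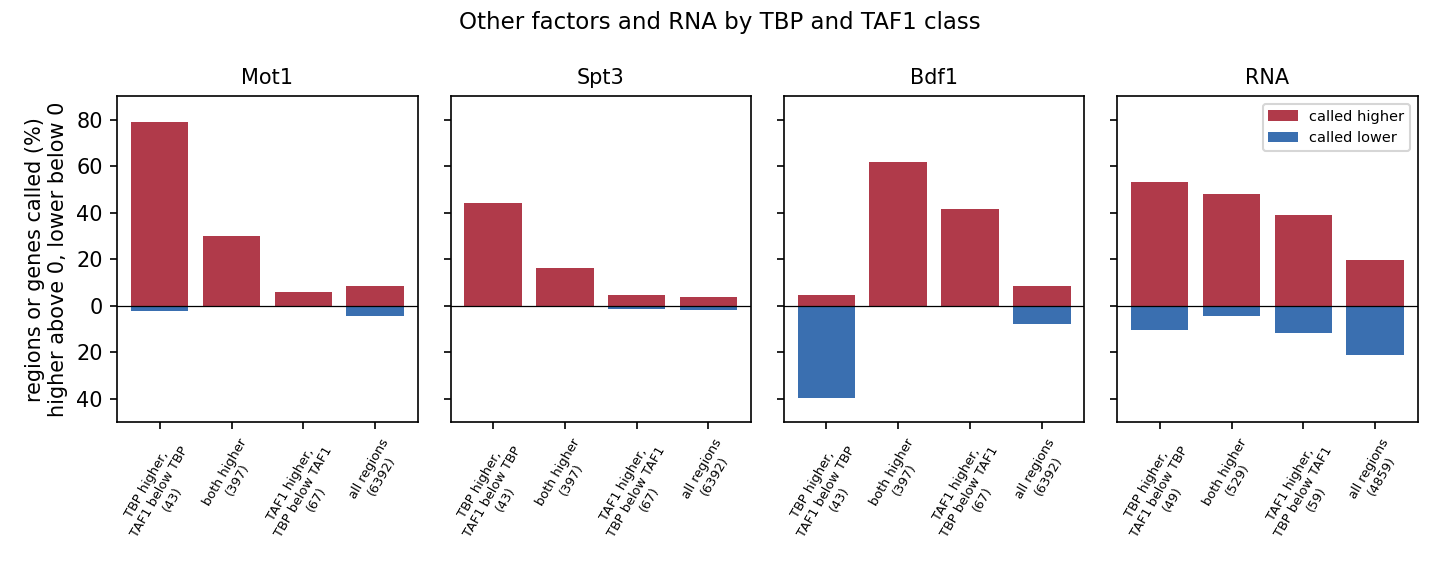
Percent of regions at which Mot1, Spt3 and Bdf1, and percent of bordering genes whose RNA, were called higher (above 0) or lower (below 0) after heat, in classes defined by TBP and TAF1 and over all regions. In the 43 regions where TBP rose above TAF1, Mot1 rose at 79.1% and Bdf1 at 4.65%, and where both rose these were 30.0% and 61.7%.

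Regions of a single promoter were also sorted by the RNA change of their gene, which came from the untagged BY4741 cells. In the 73 regions whose gene rose by more than 2 log2 units, the median TBP effect was 0.29 and the median TAF1 effect 0.19. The TBP arrays had medians of 0.42, 0.45, 0.23 and 0.24, and the TAF1 arrays 0.14, 0.27, 0.1 and 0.11. TAF1 array B lay above TBP arrays C and D, so the groups overlapped. TAF1 was lower at an unadjusted p under 0.05 at 15 of these regions (20.5%) and higher at 2 (2.74%), and without TBP array A the count of 15 became 9. In the regions whose gene rose by 1 to 2 units the medians were 0.24 and 0.25, and TAF1 was lower at 7 (4.14%) and higher at 5 (2.96%). In the 1982 regions with RNA between -1 and 1 both medians were 0.05. In the 284 regions with RNA below -1 they were -0.2 for TBP and -0.22 for TAF1. Spearman's rho with RNA over the 2508 regions was 0.44 for TBP and 0.41 for TAF1, as a description over regions. The channel order was read so that TBP at chaperone promoters ran with RNA, so the sign of these values was set by that choice.

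Many regions with a gap between the factors bordered tRNA genes, which are transcribed by RNA polymerase III with TBP as part of TFIIIB and without TFIID. TAF1 rose and TBP was not called higher at 385 regions, of which 67 had a difference with an unadjusted p under 0.05 and 0 an adjusted one. Of the 67, 18 (26.9%) bordered a tRNA gene, against 6.98% of all regions. Of the 55 regions where TAF1 fell, TBP was not called lower and the difference passed the same threshold, 11 bordered one as well. Of the 23 regions where TBP fell, TAF1 was not called lower and the difference passed it, 9 (39.1%) did. Among the 43 regions where TBP rose, TAF1 was not called higher and the difference passed it, 0 did. In these sets tRNA neighbours were frequent where either factor fell and where TAF1 rose. Their absence where TBP rose was fixed in advance, since TBP rose at 0 of the 446 tested regions beside tRNA genes. In the 67, Mot1 rose at 4 (5.97%), Spt3 at 3 (4.48%) and Bdf1 at 28 (41.8%), against 8.57%, 3.88% and 8.42% of all regions. Over all 446 regions beside tRNA genes TBP rose at 0 and fell at 23, against 8.35% and 4.01% of all regions. TAF1 rose at 26 and fell at 35 of them, against 12.2% and 8.67% of all regions. The medians were -0.05 for TBP and -0.03 for TAF1. At an unadjusted p under 0.05, TAF1 was higher at 40 and lower at 18, against 2.35% and 2.41% of all regions. The TBP arrays had medians of 0.04, -0.28, 0.22 and -0.18 there, with A and C above 0 and B and D below it, as the channel order runs, and the TAF1 arrays had -0.06, -0.05, -0.02 and -0.03. Each factor had 2 arrays of each order, and the counts were 50 higher and 18 lower with a channel effect for each factor and 35 and 10 with none. Without TBP array B, which leaves the orders unequal, they became 19 higher and 26 lower.

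Of the 12 regions described for this direction, the largest difference lay between COQ6, a monooxygenase of coenzyme Q synthesis, and the tRNA gene YNCG0046W. The TBP arrays read -0.01, -0.27, 0.14 and -0.23, and the TAF1 arrays read 1.43, 1.08, 0.58 and 0.43. All TAF1 values lay above the TBP values, TAF1 rose by 0.88, and the difference was 0.97 ± 0.19 (adjusted p = 0.0645). COQ6 RNA rose by 1.35 log2 units. Between YBR013C and the tRNA gene YNCB0007W, TBP values ran from -0.34 to 0.03 and TAF1 values from 0.34 to 0.87 (difference 0.77 ± 0.19, adjusted p = 0.207).

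PRE1, a subunit of the proteasome core, lies beside the tRNA gene YNCE0012W, and the regions on both sides of that tRNA gene had TAF1 above TBP. In the PRE1 region the TBP arrays read -0.04, -0.31, 0.15 and -0.27 and the TAF1 arrays 0.95, 0.44, 0.48 and 0.4 (difference 0.69 ± 0.18, adjusted p = 0.277). TAF1 rose there while TBP did not pass the test. In the region on the other side the TBP arrays read -0.8, -0.8, -0.6 and -0.7 and the TAF1 arrays 0.6, -0.15, -0.27 and -0.0 (difference 0.77 ± 0.18, adjusted p = 0.156). TBP fell there, and TAF1 was high on array A alone. RPT2, an ATPase of the proteasome cap, also borders a tRNA gene, with TBP values of -0.11 to 0.27 and TAF1 values of 0.23 to 0.55 (difference 0.38 ± 0.09, adjusted p = 0.155). SBA1, the Hsp90 co-chaperone p23, borders one as well, and TAF1 rose by 0.54 beside a TBP effect of 0.13.

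At YNL134C the TBP arrays read -0.25, -0.46, -0.38 and -0.3, and the TAF1 arrays read 0.13, 0.58, 0.27 and 0.2. All TBP values were below 0 and all TAF1 values above it. TBP fell by 0.35 (adjusted p = 0.0178), TAF1 rose by 0.3 (adjusted p = 0.0295), and the difference was 0.64 ± 0.13 (adjusted p = 0.0887). Spt3 rose there by 0.64, Mot1 by 0.4 and RNA by 1.72. FYV6, its neighbour, had TBP falling by 0.54 and a TAF1 effect of 0.09 in the region it shares with the tRNA gene YNCN0006W.

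HPT1, hypoxanthine-guanine phosphoribosyltransferase of purine salvage, borders no tRNA gene. Its TBP arrays read -0.68, -0.89, -0.6 and -0.65, and its TAF1 arrays read -0.37, -0.13, 0.17 and -0.11. TBP was low on every array, TAF1 was above it on every array, and the difference was 0.59 ± 0.12 (adjusted p = 0.0668). HPT1 RNA fell by 2.57 log2 units. MDM38, a mitochondrial inner membrane protein, EMA17 and the region between the tRNA gene SUP19 and RRT13 had differences of 0.47, 0.42 and 0.42, with adjusted p of 0.256 to 0.486.

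For the other genes looked up by name the difference did not pass the adjusted test. CTT1, cytosolic catalase, has 2 regions shared with PDC6: one gave 0.05 for TBP and -0.02 for TAF1, and the other gave 0.49 and -0.05 with a 95% interval of the difference from -1.15 to 0.06, while CTT1 RNA rose by 4.06. The groups did not overlap in PDC6/CTT1 region 2, and with the 8 arrays alone its TBP effect was called (adjusted p = 0.0122). CIT1, citrate synthase, borders a tRNA gene and had TAF1 rising by 0.45 with a TBP effect of 0.06. At HXT1, a glucose transporter, the effects were -0.28 and -0.11, and neither passed. RPL9A, a protein of the large ribosomal subunit, had TBP at -0.52 and TAF1 at -0.38 in the second of its 3 regions, and both fell there. ACT1, the actin gene, had TBP values of -0.41 to 0.2 and TAF1 values from 0.41 upwards, and the groups did not overlap. Its difference was 1.07, with a 95% interval of -0.18 to 2.32, and with SEs of 0.43 neither effect was called. With the 8 arrays alone the TAF1 effect at ACT1 was called (adjusted p = 0.0131). HSP12, SSA1 and RPL3 had no tested region assigned to them.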

How the data were processed

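Per the labels, chromatin or RNA was hybridised to 2-colour arrays and scanned with a GenePix scanner. The authors deposited log2 channel ratios per spot, while the sources used here do not give the numerator channel, background correction or normalization. The members and gene lists were chosen with earlier results of these data known. ChIP arrays of opposite channel order correlated, as deposited, at 0.013 to 0.255 for TAF1 and -0.287 to 0.018 for TBP. Once turned so that heat was the numerator and with the channel effect removed, they correlated at 0.121 to 0.337 and 0.188 to 0.327. That the deposited values had not already been turned is an assumption.

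Each array was turned by its labelled heat channel and centred on its median. limma 3.58.1 in R 4.3.3 fitted 28 ChIP arrays with 7 group coefficients and 1 channel effect per region, over regions with at least 3 values per group. Benjamini-Hochberg adjustment ran over all 6392 regions, at 0.05. RNA was read as channel 2 over channel 1 and fitted likewise over 4 arrays and 6772 of 7056 probes. Only 2 of these RNA arrays compared heat with mock. Scripts were tested on simulated data. Probes were named from the platform annotation, and neighbours from a RefSeq R64 table of 6477 genes, used for names and order only. Each region was placed to the right of its annotated gene, a choice made after values were seen. Of the tested regions, 2692 border 1 promoter, 1440 border 2, 1366 lie where convergent genes end, 25 have no place in that order and 869 carry no gene name. The genes named are a fixed set, the called region, the 6 strongest regions of each concordant class, members of the stress and chaperone lists with an unadjusted p under 0.05, and 12 regions per direction. The number of arrays limits the precision. No pairing of the factors by array letter was seen over all regions. Deviations of same-letter arrays correlated at -0.151 to 0.121 and those of different letters at -0.172 to 0.209. Pairing or a shared batch in part of the regions was not tested. Alternatives covered the arrays fitted, channel effect, centring, array scale and weights, missing values, letters as a block and each array left out.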

Additional observations from a re-analysis of the deposited data

Results flagged for a closer look

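The HXK1 difference of -0.74 was the 1 difference between the factors that passed the adjusted test. In 12 of the groups of 4 arrays checked (7.23%), 1 array lay far from the other 3, and chance alone gives this in about 1 in 20 groups. Among regions, these were TAF1 array B at HSP82/YAR1 (-0.69, others 0.03 to 0.13), TBP array B at HSP78 (0.94, others 0.62 to 0.65), TBP array A at the second PDC6/CTT1 region (0.73, others 0.38 to 0.44), TBP array C at PNC1/VIR1 (0.4, others 0.69 to 0.74), TAF1 array B at RFU1 (-1.74, others -0.83 to -0.72), TAF1 array D at EMA17 (0.17, others 0.34 to 0.36) and TAF1 array A at PRE1 (0.95, others 0.4 to 0.48). Among list medians, these were TBP array A (0.4) and TAF1 array A (0.57) for the proteasome, TAF1 array A for respiration (0.55) and for amino acid biosynthesis (0.17), and TAF1 array B for glycolysis (0.22). TAF1 array A was the distant array in 4 of the 12.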

How the results depend on the processing

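The count of differences, 1, became 0 with the 8 arrays alone, with a channel effect per factor, without centring, with the replicate block and without Null arrays C and D (the last chosen after seeing the data), 2 with arrays scaled to equal spread, 37 with array weights, and 0 to 4 when 1 array was left out. With equal spread the regions called were HSP82/YAR1 (-0.8) and COQ6/YNCG0046W (0.73), not HXK1. TBP calls (790) became 0 without centring, 2849 with weights and 408 to 830 with 1 array out. TAF1 calls (1336) became 0 without centring, 820 with equal spread and 625 to 1347 with 1 array out. The share of regions with both higher (6.21%) became 0.0% without centring, 11.7% with weights and 3.6% to 5.84% with 1 array out. Both lower (2.58%) became 1.5% with a channel effect per factor, 0.0% without centring, 7.21% with weights and 1.25% to 2.35%. TBP higher alone (2.14%) became 0.0%, 3.54% with equal spread, 11.7% with weights, 1.2% with the replicate block and 0.86% to 4.21%. TAF1 higher alone (6.02%) became 0.0%, 2.41% with equal spread, 1.97% with weights and 1.75% to 8.23%. RNA calls (2517) became 1365 without the channel effect and 1222 to 1427 with 1 array out.

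Signs turned for TBP at ACT1 (0.06 with weights, 0.09 without centring, -0.21 to 0.0 with 1 array out), CIT1 (-0.04 with weights, -0.02 to 0.09 with 1 out) and PDC6/CTT1 region 1 (-0.03 with weights), and for TAF1 at DDR2 (-0.02 without centring), HSP26 (-0.02 with weights, -0.08 without centring, -0.0 to 0.14 with 1 out), HSP82/YAR1 (0.0 with weights, -0.2 to 0.09 with 1 out), HXT1 (-0.2 to 0.06), PDC6/CTT1 region 1 (-0.11 to 0.07) and PDC6/CTT1 region 2 (-0.1 to 0.01). None of these effects was called. Of 432 repeats of the 24 leading differences, 0 turned sign, but these regions were chosen for the smallest p on the same arrays. The kept signs therefore lend them no support. Causes were not tested. The planned promoter motif counts were not run.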
